A study of Mus musculus with 90 samples.

Results

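A set of 10 genes used as markers of peroxisome proliferator exposure was followed, by symbol, through liver RNA sequencing of 90 outbred mice, out of 18223 genes measured. The set holds 4 cytochrome P450 genes of the Cyp4a subfamily (Cyp4a10, Cyp4a14, Cyp4a31 and Cyp4a32), 4 acyl-CoA thioesterase genes (Acot1, Acot2, Acot3 and Acot4), Ehhadh and Vnn1. All 10 were found in the tables, all 10 passed the filter on low counts, and none had a count of 0 in any library. The animals were female Diversity Outbred (J:DO) mice, each with its own mixture of founder strain genomes, aged 6 to 20 weeks. Of these, 49 received zileuton, an inhibitor of the leukotriene-forming enzyme 5-lipoxygenase, at 300 mg/kg, and 41 received sterile distilled water as vehicle. Both were given by mouth once a day for 7 days, and 1 library was made from 25 mg of liver per animal. Coats were agouti in 34, black in 6 and white in 9 zileuton animals, and agouti in 29, black in 6 and white in 6 vehicle animals. Because the stock is outbred, the spread within a group holds genetic as well as technical differences, and no animal has a genetic copy in the other group.

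Peroxisome proliferators such as fibrate drugs, and long-chain fatty acids released inside the hepatocyte, bind the nuclear receptor PPARα. With its partner RXR, the receptor binds paired AGGTCA half-sites with a single spacer base (a DR1 element) near genes of fatty acid breakdown. In mouse liver the Cyp4a genes, the Acot genes, Ehhadh and Vnn1 are textbook targets of this receptor. CYP4A enzymes add a hydroxyl group to the far (omega) end of fatty acids, and acyl-CoA thioesterases split fatty acyl-CoA into free fatty acid and coenzyme A. Ehhadh encodes the peroxisomal bifunctional enzyme that carries the middle steps of beta-oxidation, and Vnn1 encodes pantetheinase, which releases pantothenate for coenzyme A synthesis.

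Of the 10 genes, 8 lie in 2 clusters of closely related gene copies, and the resemblance between copies bears on how their reads can be assigned. In GENCODE release M21 on build GRCm38 (mm10), the Cyp4a genes span 135 kb of chromosome 4, which holds 4 protein-coding genes, all of them in the set. The Acot genes span 72.5 kb of chromosome 12, among 5 protein-coding genes. Over their coding sequence, Cyp4a10 was 96.6% identical to Cyp4a31 and 97.2% identical to Cyp4a32, but 76.1% identical to Cyp4a14. Likewise, Acot1 was 95.3% identical to Acot2, 83.9% to Acot3 and 74.6% to Acot4. The start of the coding sequence of Cyp4a10 is set below against the aligned stretches of its 3 neighbours, as annotated transcripts on GRCm38, with capitals at the bases that differ from Cyp4a10. Over these 60 bases Cyp4a32 differs at 1 base, Cyp4a31 at 3 and Cyp4a14 at 24.
Cyp4a10: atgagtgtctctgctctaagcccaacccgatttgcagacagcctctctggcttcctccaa
Cyp4a32: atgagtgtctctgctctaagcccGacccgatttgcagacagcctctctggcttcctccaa
Cyp4a31: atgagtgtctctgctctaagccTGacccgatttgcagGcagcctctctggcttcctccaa
Cyp4a14: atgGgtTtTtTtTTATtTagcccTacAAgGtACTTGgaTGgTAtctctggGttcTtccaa

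The same view of the Acot cluster is given with capitals at bases that differ from Acot1. The stretch begins at the first coding base in Acot1 and Acot4, at coding base 34 in Acot3 and at coding base 124 in Acot2, whose protein carries an additional leader for import into mitochondria. Acot4 and Acot2 differ from Acot1 at 8 and 10 of these 60 bases, and Acot3 differs at 22.
Acot1: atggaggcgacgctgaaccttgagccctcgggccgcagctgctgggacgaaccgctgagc
Acot2: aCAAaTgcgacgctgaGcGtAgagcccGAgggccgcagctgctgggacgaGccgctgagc
Acot4: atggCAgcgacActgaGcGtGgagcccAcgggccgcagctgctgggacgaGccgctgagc
Acot3: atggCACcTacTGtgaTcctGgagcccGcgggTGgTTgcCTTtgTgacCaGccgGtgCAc

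Stretches of 50 bases that also occur in transcripts of another gene made up 46.8% of the Cyp4a32 transcript, 30.5% of Cyp4a10, 21.8% of Cyp4a31, 33.6% of Acot1 and 27.7% of Acot2. They made up 19.5% of Acot3, 4.87% of Acot4 and 0.245% of Cyp4a14, and none were found in Ehhadh or Vnn1. In the deposited estimated counts, Ehhadh and Vnn1 had a whole-number count in 100% of libraries and Cyp4a14 in 98.9%, whereas Cyp4a31, Acot1, Acot2 and Acot3 had one in 0 libraries (tolerance 0.001 counts). The remaining 3 had whole counts in 11.1% of libraries for Cyp4a10 and 1.11% each for Cyp4a32 and Acot4. Levels of Cyp4a10, Cyp4a31, Cyp4a32 and the 4 Acot genes are therefore estimates of how shared reads were divided. Sums are given for the closest copies, Cyp4a10 with Cyp4a31 and Cyp4a32, and Acot1 with Acot2.

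Promoter windows of 250 bases before an annotated start were available from RefSeq (build GRCm38.p6) for 6 of the genes, Acot1, Acot2, Acot3, Acot4, Cyp4a32 and Ehhadh. They were searched on both strands for the DR1 motif AGGTCANAGGTCA, which overlaps the half-site motif AGGTCA at each end. A match with no mismatch occurred in 0.0335% of 32851 windows of this length over all genes, and one with at most 2 mismatches in 3.24%. The Acot4 window held a match with 2 mismatches on the reverse strand, 13 to 1 bases before the start, and it was the only window among those of the 6 genes with an intact AGGTCA, which 14.02% of all windows hold. The best matches in the Acot2 and Cyp4a32 windows had 3 mismatches, a level reached by 21.3% of all windows, and those in the Acot1, Acot3 and Ehhadh windows had 4. The Acot4 window (chr12:84038129-84038378, forward strand) and the Cyp4a32 window (chr4:115600688-115600937, forward strand) are shown with capitals at the best match, the first for having the fewest mismatches of the 6 genes and the second as the Cyp4a window at hand.
Acot4: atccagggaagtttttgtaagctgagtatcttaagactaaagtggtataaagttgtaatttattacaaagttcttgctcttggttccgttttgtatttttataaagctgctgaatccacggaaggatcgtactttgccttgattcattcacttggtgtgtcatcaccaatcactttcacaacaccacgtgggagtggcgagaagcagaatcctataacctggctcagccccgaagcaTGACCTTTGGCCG
Cyp4a32: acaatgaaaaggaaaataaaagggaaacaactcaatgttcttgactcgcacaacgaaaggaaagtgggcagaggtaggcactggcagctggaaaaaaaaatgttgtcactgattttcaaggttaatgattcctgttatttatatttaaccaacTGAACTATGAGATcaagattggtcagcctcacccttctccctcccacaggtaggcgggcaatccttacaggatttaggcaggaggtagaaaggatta

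The total of estimated counts lay between 12664579 and 41360187 in each library, and its median was 25083838 in zileuton animals and 26105475 in vehicle animals. Of 6 hepatocyte marker genes, 5 were lower and 0 higher in zileuton livers, and their summed level had a median of 101803 CPM (counts scaled to library size) in zileuton animals and 117596 CPM in vehicle animals. Among markers of other liver cells, 0 of 5 Kupffer cell genes passed, 1 of 5 sinusoidal endothelial and 1 of 5 cholangiocyte genes were lower, and of 5 stellate cell genes 1 was higher and 1 lower. Skeletal muscle markers, near 0 in most livers, summed to as much as 1894 CPM in a zileuton library and 3234 CPM in a vehicle library. The part of these markers in the results was not tested. Animal numbers fell into 8 runs of 50 consecutive numbers, whose meaning the labels do not give. Within a run, zileuton animals held positions 25 to 50 and vehicle animals positions 13 to 20, so exposure and position within the run cannot be told apart by these ranges. A circadian clock score, the mean scaled level of genes in phase with Per and Rev-erb minus that of genes in phase with Bmal1, was also higher in zileuton livers, at 1.11 ± 1.17 against -1.32 ± 1.27 in vehicle livers (SD, n = 49 and 41), with 48 of 49 zileuton animals higher than the vehicle median. In bulk liver RNA, fewer cells of a type and less RNA per cell cannot be told apart.

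All 10 genes were higher in zileuton livers at a Benjamini-Hochberg adjusted p under 0.05 over the 13248 genes tested with the edgeR quasi-likelihood test. Over all genes tested, 29.3% passed, 14.4% in that direction and 14.8% in the other. A change of at least 2-fold upward in this fit was reached by 9 of the 10 genes and by 1.03% of all genes tested. By the log2 ratio of group medians, Acot2 (0.99), Acot3 (0.66) and Acot4 (0.30) were under 2-fold and the others above it. The median log2 fold change, zileuton over vehicle, was 1.51 for the 10 genes and -0.01 for all genes. Fold changes ran from 1.39 for Acot4 to 3.75 for Cyp4a31. In each of the 10 genes the ranges of the 2 groups overlapped, as the plot of levels in each animal shows.

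**Figure D1:**
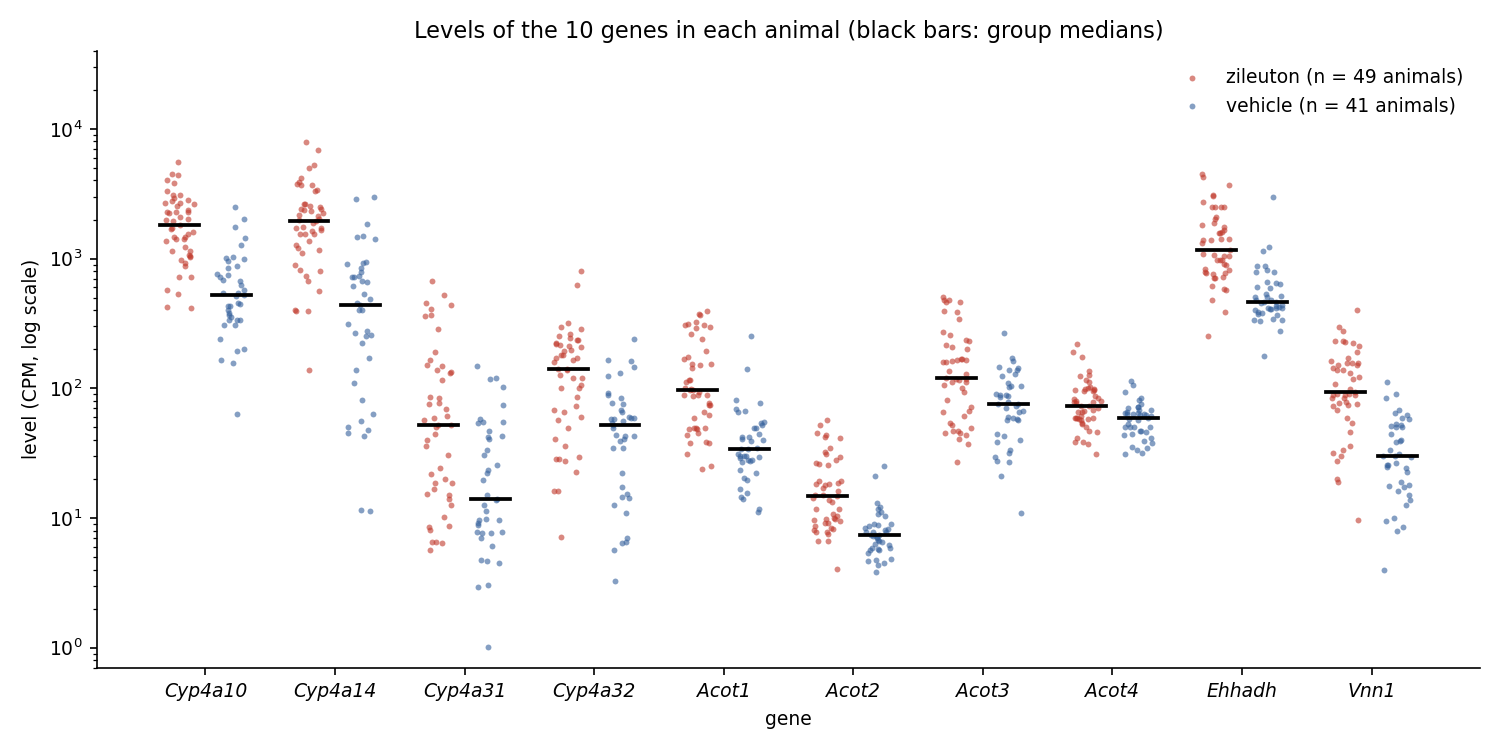
Level of each gene in CPM (log axis) in each of 49 zileuton and 41 vehicle animals, with black bars at the group medians. Every zileuton median lies above its vehicle median, from 1958 against 439 CPM for Cyp4a14 to 73.2 against 59.3 CPM for Acot4, and the clouds of points overlap for every gene.

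The Cyp4a genes included both the most abundant and the most variable members of the set. Cyp4a10 (chromosome 4, 115518264 to 115533649, forward strand), which hydroxylates fatty acids such as laurate at the omega end, had a lowest, median and highest level of 417, 1805 and 5600 CPM in zileuton livers, against 63.8, 522 and 2509 CPM in vehicle livers. Of 49 zileuton animals, 47 lay above the vehicle median and 15 above the highest vehicle animal. The log2 fold change was 1.59 ± 0.205 (SE), a 3.00-fold difference (edgeR, adjusted p = 1.77e-09).

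Cyp4a14 (chromosome 4, 115486200 to 115496142, reverse strand), the family member with the least shared sequence, ranged from 138 through a median of 1958 to 7866 CPM in zileuton livers, against 11.3, 439 and 3000 CPM in vehicle livers. Vehicle animals thus differed among themselves by 267-fold in this gene, and zileuton animals by 57.1-fold. In 45 of 49 zileuton animals Cyp4a14 was above the vehicle median, and in 11 it was above every vehicle animal. Its log2 fold change was 1.84 ± 0.305, or 3.58-fold (edgeR, adjusted p = 1.25e-06).

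Cyp4a31 (chromosome 4, 115563649 to 115579015, forward strand), a close copy of Cyp4a10, had levels of 5.67, 52.0 and 675 CPM (lowest, median and highest) in zileuton livers, against 1.01, 14.1 and 149 CPM in vehicle livers. Both groups were widely spread, 40 of 49 zileuton animals lay above the vehicle median, and 9 of 41 vehicle animals lay above the zileuton median. The log2 fold change of 1.91 ± 0.385 (3.75-fold) was the highest of the set in the edgeR fit and had the largest standard error (edgeR, adjusted p = 5.14e-05). By the difference of mean log2 CPM over all animals, Cyp4a14 was the highest, at 2.45 against 1.57 for Cyp4a31. Cyp4a32 (chromosome 4, 115600969 to 115621602, forward strand), also a close copy of Cyp4a10, reached 7.15, 141 and 807 CPM in zileuton livers, against 3.25, 52.5 and 239 CPM in vehicle livers. In 38 of 49 zileuton animals it was above the vehicle median, and its log2 fold change was 1.43 ± 0.283, or 2.69-fold (edgeR, adjusted p = 3.67e-05).

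With the counts of Cyp4a10, Cyp4a31 and Cyp4a32 summed, which removes the division of reads among them, the lowest, median and highest levels were 437, 1874 and 7083 CPM in zileuton livers, against 72.5, 596 and 2605 CPM in vehicle livers. The summed log2 fold change was 1.59 ± 0.198 (edgeR, adjusted p = 7.13e-10). Cyp4a10 made up a median of 89.3% of the sum in zileuton livers and 87.4% in vehicle livers, so the sum mostly tracks that gene.

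Among the thioesterases, the estimated fold changes were 3.10 and 2.32 for the genes of the cytosolic and the mitochondrial form, and 2.05 and 1.39 for the genes of the peroxisomal forms; the difference between genes was not tested. Acot1 (chromosome 12, 84009490 to 84018371, forward strand), the cytosolic long-chain thioesterase, had a lowest, median and highest level of 23.9, 96.7 and 391 CPM in zileuton livers, against 11.1, 33.96 and 252 CPM in vehicle livers. The highest vehicle animal stood well apart, since 46 of 49 zileuton animals exceeded the vehicle median but only 10 exceeded that animal. Its log2 fold change was 1.63 ± 0.231, or 3.10-fold (edgeR, adjusted p = 2.59e-08).

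Acot2 (chromosome 12, 83987861 to 83993873, forward strand), the mitochondrial form, ran from 4.07 through a median of 14.7 to 57.2 CPM in zileuton livers, against 3.82, 7.39 and 25.2 CPM in vehicle livers. The lowest animals of the groups were alike and the upper ends were not, with 14 zileuton animals above all vehicle animals. The log2 fold change was 1.21 ± 0.171, or 2.32-fold (edgeR, adjusted p = 2.24e-08). Summed with Acot1, the log2 fold change was 1.57 ± 0.219 (edgeR, adjusted p = 1.56e-08), and Acot1 made up a median of 87.4% of the sum in zileuton livers and 83.5% in vehicle livers.

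Acot3 (chromosome 12, 84052144 to 84060402, forward strand), a peroxisomal long-chain thioesterase, had levels of 26.9, 120 and 502 CPM in zileuton livers, against 10.8, 75.9 and 265 CPM in vehicle livers. In 34 of 49 zileuton animals it lay above the vehicle median, so the 15 others were within the lower part of the vehicle range. Its log2 fold change was 1.03 ± 0.219, or 2.05-fold (edgeR, adjusted p = 1.13e-04). Acot4 (chromosome 12, 84038379 to 84048601, forward strand), which acts on succinyl-CoA and other dicarboxylic acyl-CoAs, had levels of 30.9, 73.2 and 219 CPM in zileuton livers, against 31.2, 59.3 and 114 CPM in vehicle livers. The bottom of the ranges coincided, 33 of 49 zileuton animals exceeded the vehicle median and 7 exceeded the highest vehicle animal. The log2 fold change of 0.48 ± 0.116, or 1.39-fold, was the smallest of the 10 (edgeR, adjusted p = 7.89e-04).

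Ehhadh and Vnn1, the members with no shared stretches of sequence, had adjusted p-values of 4.70e-09 and 1.57e-09. Ehhadh (chromosome 16, 21761287 to 21787807, reverse strand), the peroxisomal bifunctional enzyme, had a lowest, median and highest level of 252.5, 1169 and 4461 CPM in zileuton livers, against 178, 461 and 2976 CPM in vehicle livers. In 47 of 49 zileuton animals it was above the vehicle median, while a single vehicle animal at 2976 CPM left 5 zileuton animals above the whole vehicle range. Its log2 fold change was 1.36 ± 0.181, or 2.57-fold (edgeR, adjusted p = 4.70e-09).

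Vnn1 (chromosome 10, 23894688 to 23905343, forward strand), the pantetheinase, had levels of 9.69, 93.5 and 399 CPM in zileuton livers, against 3.99, 30.1 and 112 CPM in vehicle livers. This gene had the most zileuton animals above every vehicle animal, 22 of 49, and a single vehicle animal exceeded the zileuton median. The log2 fold change was 1.74 ± 0.223, or 3.33-fold (edgeR, adjusted p = 1.57e-09).

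Levels were put on one scale by dividing CPM by the summed exon length in kilobases, which gives a level per length in RPKM. In zileuton livers the median level was 856 RPKM for Cyp4a10, 753 RPKM for Cyp4a14 and 392.2 RPKM for Ehhadh, followed by Cyp4a32 at 91.5, Vnn1 at 38.7, Acot3 at 34.8, Acot1 at 24.7, Cyp4a31 at 20.7, Acot4 at 10.97 and Acot2 at 6.68 RPKM. In vehicle livers the order was 248 RPKM for Cyp4a10, 169 for Cyp4a14, 155 for Ehhadh, 34.2 for Cyp4a32, 22.1 for Acot3, 12.5 for Vnn1, 8.88 for Acot4, 8.67 for Acot1, 5.62 for Cyp4a31 and 3.36 for Acot2. Ehhadh was above its neighbour Cyp4a32 in 49 of 49 zileuton and 41 of 41 vehicle livers. The other neighbours changed places in some animals. Cyp4a10 was above Cyp4a14 in 26 of 49 zileuton and 32 of 41 vehicle livers, and Acot4 was above Acot1 in 20 of 41 vehicle livers. The annotated Cyp4a32 transcript is nearly all coding sequence, at 1536 bases of exon, and reads outside it would not enter its length. Summed exon length takes in all annotated transcripts of a gene. For Acot1 it was 3919 bases, against 2272 bases for the coding transcript compared above. With that shorter length the Acot1 levels would be higher, so its place in both orders depends on the length chosen.

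Circadian score and position within the run moved with exposure, and their part in the differences was not tested beyond fits in which each was a covariate. With the clock score in the edgeR fit, 1.8% of all genes passed upward, and 7 of the 10 genes did. Cyp4a32, with a log2 fold change of 1.12 (adjusted p = 0.0945), Acot3, with 0.29 (adjusted p = 0.688), and Acot4, with 0.10 (adjusted p = 0.796), no longer passed. The other 7 ranged from 0.75 for Acot2 to 1.95 for Cyp4a31. With position in the fit, 1.25% of all genes passed upward, and Vnn1 alone among the 10 did, at a log2 fold change of 1.54 (adjusted p = 0.0362). The remaining 9 had positive estimates between 0.26 for Acot4 and 1.56 for Cyp4a14, with adjusted p between 0.0747 and 0.635.

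**Figure D2:**
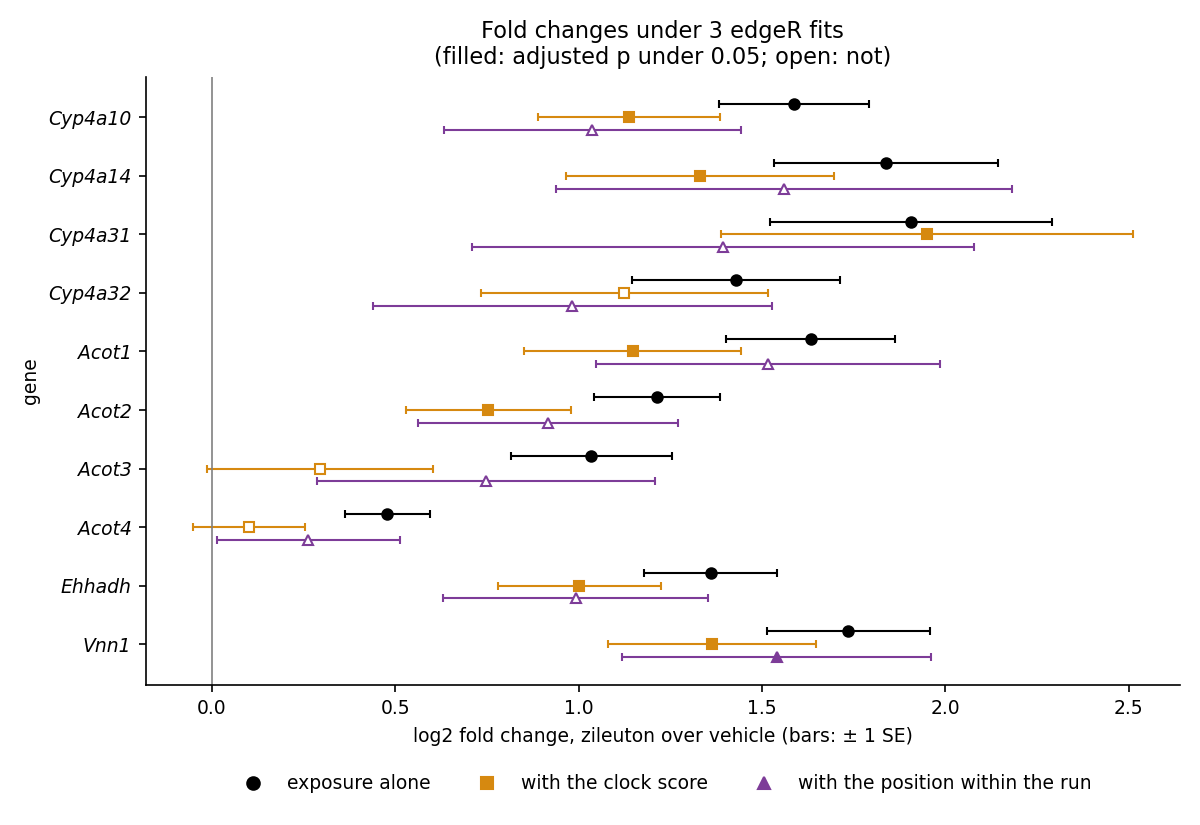
Log2 fold change, zileuton over vehicle, with ± 1 SE for each gene under edgeR fits with exposure alone, with the clock score added and with position within the run added (filled symbols have an adjusted p under 0.05). All estimates are above 0, 10 of 10 pass with exposure alone, 7 of 10 with the clock score and 1 of 10 with position.

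Within runs, each of which held 2 to 12 zileuton and 3 to 6 vehicle animals, the difference of mean log2 CPM could be compared with the pooled one. Cyp4a10, Cyp4a14, Cyp4a31, Cyp4a32, Acot1, Acot2, Ehhadh and Vnn1 had higher means in zileuton livers in 8 of 8 runs. The share of all genes higher in 8 of 8 runs was not computed, so it is not known whether this sets them apart. For Cyp4a14 the differences, zileuton minus vehicle, ran from 1.03 to 3.66 with a median of 2.61, and for Vnn1 from 0.18 to 2.53 with a median of 2.24. Acot3 and Acot4 had higher means in zileuton livers in 7 of 8 runs, and run 4, which held 12 zileuton and 5 vehicle animals, had differences of -0.77 and -0.39. Without run 4, the edgeR log2 fold change over the other animals was 1.35 for Acot3 and 0.66 for Acot4, the highest of the 8 fits without 1 run. The lowest came without run 6, at 0.79 for Acot3 and 0.39 for Acot4.

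**Figure D3:**
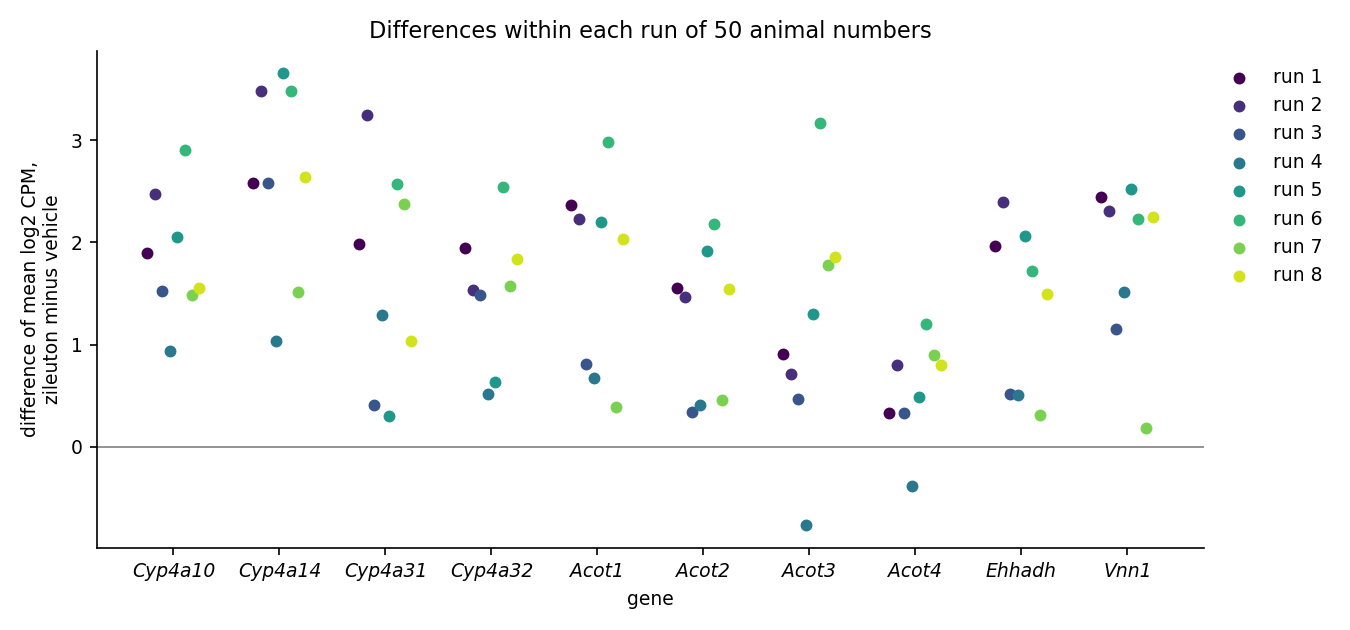
Difference of mean log2 CPM, zileuton minus vehicle, within each of 8 runs of 50 animal numbers, 1 point per run and gene. All points are above 0 except those of run 4 for Acot3 (-0.77) and Acot4 (-0.39), and the points of a gene spread most for Acot3, up to 3.17.

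Animals differed widely within each group. Ranked among 11857 genes by the mean absolute deviation of log2 CPM from the group median, the 10 genes stood between percentile 88.5 (Acot4) and 99.5 (Cyp4a31) in zileuton livers, and between percentile 80.8 (Acot4) and 99.4 (Cyp4a14) in vehicle livers. A limma test of the spread between groups passed for 0 of the 10 genes, against 0.0337% of all genes tested (4 genes). At an unadjusted p under 0.05 were 3 of the 10, beside 8.76% of all genes tested for spread, and none of the 3 passed after adjustment. Cyp4a14 had a mean deviation of 0.84 in zileuton livers and 1.55 in vehicle livers (difference -0.71 ± 0.220 SE, adjusted p = 0.229). Acot2 had 0.75 in zileuton livers and 0.40 in vehicle livers (0.34 ± 0.0990, adjusted p = 0.196), and Ehhadh had 0.74 in zileuton livers and 0.47 in vehicle livers (0.27 ± 0.106, adjusted p = 0.406).

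The same few animals were high in many of the genes. Among 41 vehicle animals, replicate 37 ranked 1 or 2 from the top in Cyp4a10, Cyp4a14, Acot1, Acot2, Acot4, Ehhadh and Vnn1, with 3000 CPM of Cyp4a14 and 252 CPM of Acot1. Vehicle replicate 15 was highest in Cyp4a10 (2509 CPM) and Ehhadh (2976 CPM) and ranked 2 in Cyp4a14 (2859 CPM) and Acot1 (141 CPM). Vehicle replicate 28 was highest in Acot3 (265 CPM), Acot4 (114 CPM) and Vnn1 (112 CPM). These animals, singled out after their values were seen, were not high in every gene, since replicates 37 and 15 ranked 32 and 26 of 41 in Cyp4a32, at 15.3 and 40.8 CPM. At the other end, zileuton replicate 28 was the lowest zileuton animal in Cyp4a10 (417 CPM), Cyp4a14 (138 CPM) and Ehhadh (252.5 CPM).

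Whether the genes were high in the same animals was examined by correlating each of the other 9 with Cyp4a14 over log2 CPM, in each group alone (18 relations, permutation tests with 100000 resamples, adjusted over the 18). Runs were not taken into account, so differences between runs enter these correlations along with differences between animals of a run. For example, mean log2 CPM of Cyp4a14 in zileuton livers was 10.07 in run 4 and 11.82 in run 6. Acot1 had means of 6.05 and 7.87 in the same runs. The part of run in the correlations here and below was not tested. In zileuton livers (n = 49), Cyp4a10 had Pearson's r of 0.82 and Spearman's rho of 0.83 (permutation p = 1e-05 each, the smallest the resamples can give, adjusted p = 3e-05). In vehicle livers (n = 41) its r was 0.72 and its rho 0.75 (permutation p = 1e-05 each, adjusted p = 3e-05). Leaving out the 2 animals farthest from the median of Cyp4a14 gave r of 0.81 in zileuton livers and 0.79 in vehicle livers.

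Acot1 followed with r of 0.76 and rho of 0.77 in zileuton livers (permutation p = 1e-05 each, adjusted p = 3e-05) and r of 0.57 and rho of 0.61 in vehicle livers (permutation p = 1e-04 and 5e-05, adjusted p = 2.25e-04 and 1.125e-04). Ehhadh had r of 0.77 and rho of 0.74 in zileuton livers (permutation p = 1e-05 each, adjusted p = 3e-05) and r of 0.59 and rho of 0.67 in vehicle livers (permutation p = 8e-05 and 1e-05, adjusted p = 2.06e-04 and 3e-05). For Acot2 the values were r of 0.70 and rho of 0.73 in zileuton livers (permutation p = 1e-05 each, adjusted p = 3e-05) and r of 0.47 and rho of 0.50 in vehicle livers (permutation p = 0.00185 and 8.6e-04, adjusted p = 0.00303 and 0.00162). Without the 2 animals farthest from the median, r of these 3 genes stayed between 0.69 and 0.74 in zileuton livers and between 0.53 and 0.65 in vehicle livers.

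For the peroxisomal thioesterases, Acot3 had r of 0.43 and rho of 0.46 in zileuton livers (permutation p = 0.0023 and 9e-04, adjusted p = 0.00331 and 0.00162) and r of 0.46 and rho of 0.44 in vehicle livers (permutation p = 0.00239 and 0.00401, adjusted p = 0.00331 and 0.00555). For Acot4, r and rho were both 0.44 in zileuton livers (permutation p = 0.0016 and 0.00171, adjusted p = 0.00288 and 0.00257), and in vehicle livers r was 0.50 and rho 0.49 (permutation p = 8.8e-04 and 0.00136, adjusted p = 0.00176 and 0.00223). With the 2 farthest animals left out, r was 0.38 for Acot3 and 0.37 for Acot4 in zileuton livers, and 0.47 and 0.49 in vehicle livers.

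Vnn1 had r of 0.65 and rho of 0.62 in zileuton livers (permutation p = 1e-05 and 2e-05, adjusted p = 3e-05 and 5.14e-05), and r of 0.63 without the 2 farthest animals. In vehicle livers its r was 0.16 and its rho 0.26 (permutation p = 0.317 and 0.0974, adjusted p = 0.380 and 0.117), and r was 0.27 without the 2 farthest animals. The difference between the groups was not tested.

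The remaining Cyp4a genes had no relation to Cyp4a14 that passed. In zileuton livers r was 0.25 for Cyp4a31 and 0.07 for Cyp4a32, with rho of 0.27 and 0.15 (permutation p of r 0.0797 and 0.627, of rho 0.0567 and 0.292, adjusted p from 0.0729 to 0.627). In vehicle livers r was -0.13 for Cyp4a31 and -0.11 for Cyp4a32, with rho of -0.07 and -0.12 (permutation p of r 0.435 and 0.496, of rho 0.666 and 0.463, adjusted p from 0.489 to 0.666). Without the 2 farthest animals, r lay between 0.01 and 0.22. Cyp4a31 and Cyp4a32 lie on chromosome 4 in the same cluster as Cyp4a14. With Cyp4a10, with which both share reads, rho was 0.55 for Cyp4a31 and 0.48 for Cyp4a32 in zileuton livers. In vehicle livers these values were 0.29 and 0.31. With Ehhadh, rho was 0.54 and 0.47 in zileuton livers and 0.18 and 0.02 in vehicle livers. The relations to Cyp4a10 and Ehhadh were not tested.

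**Figure D4:**
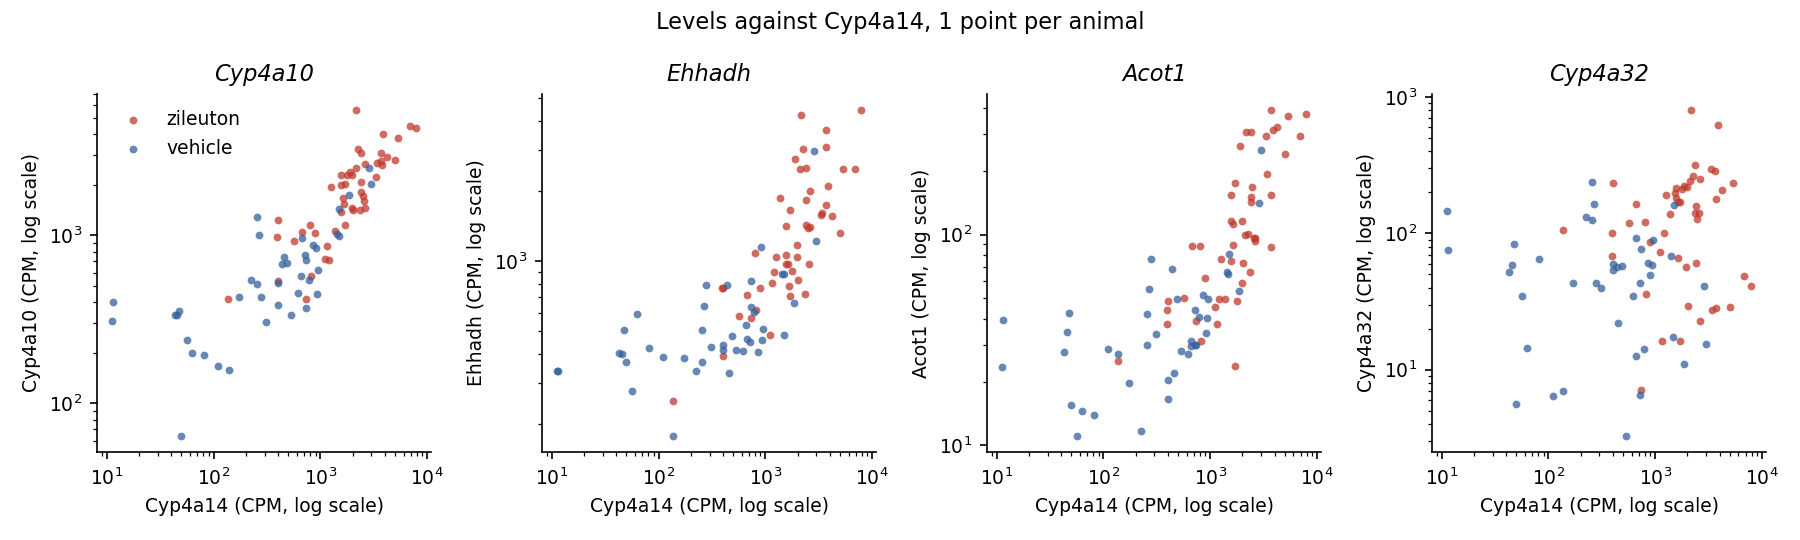
Levels of Cyp4a10, Ehhadh, Acot1 and Cyp4a32 against Cyp4a14 in CPM (both axes log), 1 point per animal, zileuton and vehicle in separate colours. Within each group Cyp4a10 climbs along with Cyp4a14 (rho of 0.83 in zileuton and 0.75 in vehicle livers), whereas Cyp4a32 is scattered (rho of 0.15 in zileuton and -0.12 in vehicle livers).

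Over the 49 zileuton animals, the genes outside the set whose levels ran most like Cyp4a14, ranked by Spearman's rho among 11985 genes with a mean of at least 1 CPM, were Hadha (0.76), Eci2 (0.75), Hadhb (0.75), Ech1 (0.74) and Acadvl (0.74). They were chosen by these zileuton values. In vehicle livers rho was 0.41 for Hadha (rank 198), 0.45 for Eci2 (rank 103) and 0.40 for Hadhb (rank 229). Ech1 had 0.52 (rank 32) and Acadvl 0.44 (rank 117) there. Among the set, Cyp4a10 was ranked 1 of the 11985 genes in zileuton livers and also in vehicle livers, Acot1 ranked 2 in zileuton and 10 in vehicle livers, and Ehhadh 6 in zileuton and 3 in vehicle livers. The others ranked lower. In zileuton and vehicle livers, Acot2 was at 10 and 39, Vnn1 at 30 and 1045, Acot3 at 156 and 132, and Acot4 at 202 and 48. Cyp4a31 was at 1066 and 7373, and Cyp4a32 at 2627 and 8499. Hadha and Hadhb encode the subunits of the mitochondrial trifunctional protein, Eci2 and Ech1 encode isomerases of unsaturated acyl-CoA, and Acadvl encodes the very-long-chain acyl-CoA dehydrogenase. Their own log2 fold changes were small, at 0.18 for Hadha, 0.60 for Eci2, 0.22 for Hadhb, 0.41 for Ech1 and 0.13 for Acadvl, each past the edgeR threshold.

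Coat colour, the other label that differed between animals, was compared in 1 edgeR fit with exposure as a term. None of the 10 genes passed for white against agouti coats (0.00755% of all genes passed) or for black against agouti coats (0.0453%), and none passed for the interaction of exposure with white (0.0302%) or black coat (0.00755%). At an unadjusted p under 0.05, 0 of the 10 differed in any of these contrasts, a count for which the share over all genes was not computed. With RLE scaling, 0 of the 10 passed. The lowest unadjusted p was 0.0527, for Acot3 in black against agouti coats (log2 fold change 0.59 ± 0.299, adjusted p = 0.774). Median Acot3 was 216 CPM in 6 black and 132 CPM in 34 agouti zileuton animals, and 131 CPM in 6 black and 65.6 CPM in 29 agouti vehicle animals. With 6 black and 6 white vehicle animals, the number of animals limits what these contrasts can show.

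The wider pathway was covered by 9 lists with 138 genes, of which 131 could be tested. Of these, 50 were higher, 11 were lower and 70 did not pass, beside 14.4% higher and 14.8% lower over all genes tested. All list medians other than that of the Cyp4 genes lay between 0.01 and 0.24, against -0.01 over all genes tested. The list of other Cyp4 genes had a median of 1.30 over 3 genes tested, of which 1 passed. The peroxisomal beta-oxidation list had 10 of 20 genes higher and 1 lower (median 0.23). Eci2, an isomerase of unsaturated acyl-CoA, had medians of 173 CPM in zileuton livers and 127 CPM in vehicle livers (log2 fold change 0.60 ± 0.0774, edgeR adjusted p = 1.98e-09). Eci3, a related isomerase, was the lower one, at a log2 fold change of -0.74 ± 0.187 (adjusted p = 0.00118).

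Peroxisome biogenesis genes were higher in 9 of 18 and lower in 2 (median 0.08). Pex11a, whose product drives peroxisome division, had a log2 fold change of 0.89 ± 0.134 (edgeR, adjusted p = 1.31e-07), Pex19 had 0.26, and Pex2 and Pxmp4 had -0.25 and -0.18. Mitochondrial oxidation and ketogenesis genes were higher in 11 of 22 and lower in 1 (median 0.12). The carnitine carrier gene Slc22a5 was among the higher ones (0.78 ± 0.116, adjusted p = 8.45e-08). The lower gene was Pdk4, which restrains pyruvate oxidation and is another textbook PPARα target, with medians of 6.19 CPM in zileuton livers and 14.2 CPM in vehicle livers (-0.997 ± 0.195, adjusted p = 2.88e-05). Its edgeR estimate was -0.04 with the clock score as covariate and 0.17 with position, and it passed in neither fit.

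Lipid handling genes were higher in 7 of 22 and lower in 2 (median 0.12). The fatty acid binding protein gene Fabp1 had a log2 fold change of 0.55 and the lipid droplet gene Cidec one of 1.13, while Hilpda, another lipid droplet gene, had -0.39. Fgf21, a liver hormone gene that PPARα also activates, was lower, with medians of 0.469 CPM in zileuton livers and 1.62 CPM in vehicle livers (-1.997 ± 0.255, edgeR adjusted p = 1.29e-09). The omega-oxidation list, made up of alcohol and aldehyde dehydrogenases, which act after CYP4A, and the P450 gene Cyp4v3 (log2 fold change -0.05, not passed), had 3 of 8 higher and 1 lower (median 0.04). Aldh3a2 had 0.69, Aldh1a1 0.71 and Adh4 -0.47. Coenzyme A metabolism had 4 of 12 higher and 0 lower (median 0.06), with Pank3 at 0.32 and Nudt8 at 0.23, in the same pathway that Vnn1 feeds.

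Other acyl-CoA thioesterases were higher in 3 of 10 and lower in 1 (median 0.11). Acot8 had a log2 fold change of 0.29, Acot12 had 0.18 and Baat, the bile acid conjugating enzyme of the same protein family, had -0.15. Among the other Cyp4 genes, 1 of 3 tested passed. Cyp4a12a, a CYP4A gene known for higher expression in male mice, had a lowest, median and highest level of 0.436, 26.3 and 546 CPM in zileuton livers, against 0.0718, 2.49 and 163 CPM in vehicle livers (2.56 ± 0.551, edgeR adjusted p = 1.43e-04). Its zileuton and vehicle ranges overlapped from 0.436 to 163 CPM.

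Receptors and coregulators had 2 of 16 higher and 3 lower (median 0.01), shares near the 14.4% higher and 14.8% lower of all genes tested. Ppara itself had medians of 239 CPM in zileuton livers and 210 CPM in vehicle livers, with a log2 fold change of 0.18 ± 0.0732 that did not pass (edgeR, adjusted p = 0.0514). The coactivator genes Ppargc1b (0.76 ± 0.123, adjusted p = 7.09e-07) and Med1 (0.12 ± 0.0461, adjusted p = 0.0432) were higher. Ppard, the sister receptor, was lower, with medians of 6.35 CPM in zileuton livers and 19.2 CPM in vehicle livers (-1.52 ± 0.168, adjusted p = 1.90e-11), and Rxrg had -0.37 (adjusted p = 3.51e-08). With the clock score in the fit, 5 of the 131 list genes passed upward and 2 downward, and with position 4 and 0. Acaa1b (0.65), Eci2 (0.35) and Plin5 (0.57) were among the 5 higher with the clock score, and Eci3 (-0.90) and Rxrg (-0.34) were the 2 lower. Eci2 (0.57), Nudt8 (0.49) and Slc27a4 (0.26) were among the 4 higher with position, so the other list genes named above passed in neither fit. Among these, Ppard had an estimate of -0.15 with the clock score and -1.07 with position, and Fgf21 had -1.12 and -1.18.

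**Figure D5:**
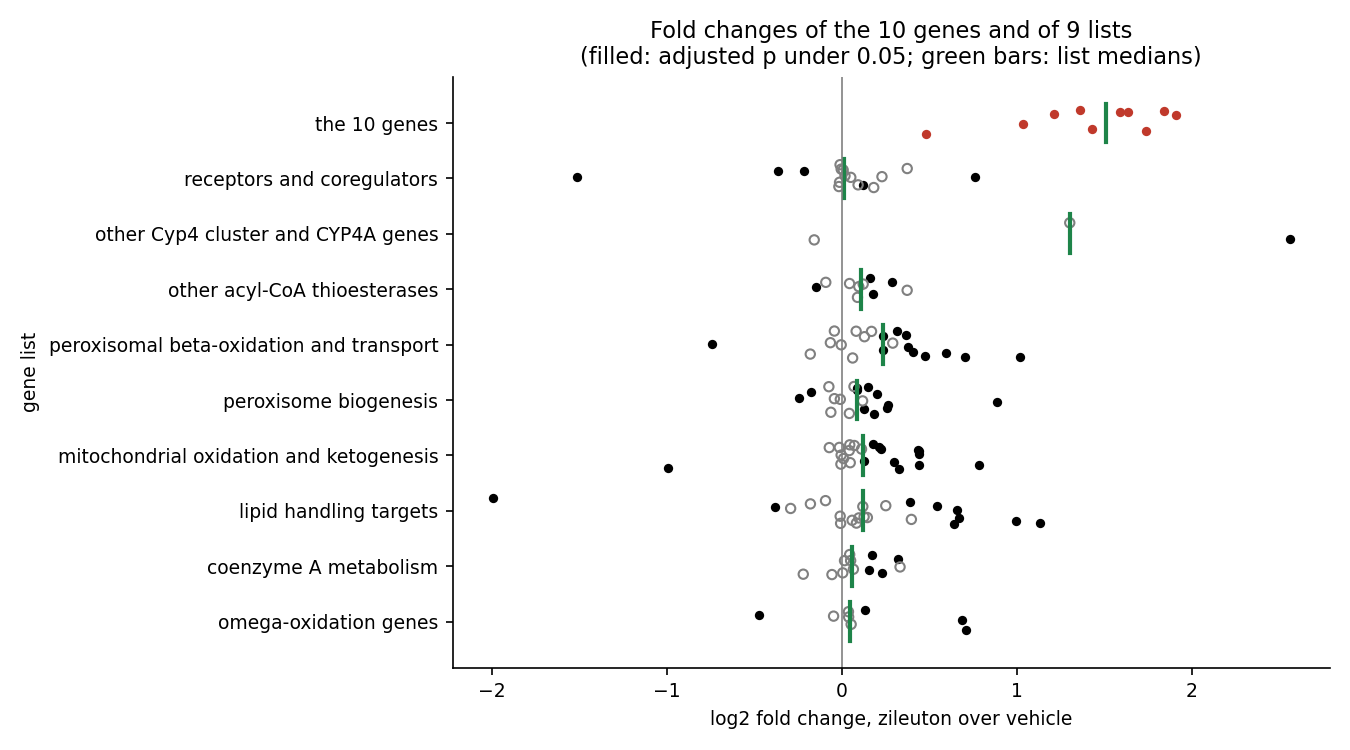
Log2 fold changes, zileuton over vehicle, of the 10 genes (top row) and of the tested members of 9 pathway lists, 1 point per gene, filled where the adjusted p was under 0.05, with green bars at the medians. The 10 genes lie between 0.48 and 1.91 with a median of 1.51, and the medians of 8 of the 9 lists lie between 0.01 and 0.24. The remaining list, of other Cyp4 genes, has a median of 1.30 over 3 genes.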

How the data were processed

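Per the labels' protocols, TruSeq RNA libraries were sequenced on an Illumina HiSeq, from RNA with an integrity number of at least 8. The tools named in the submitters' processing notes are STAR, Partek and DESeq2, and the build is mm10. Neither the labels nor these notes name the counting tool, its annotation or its use of strand. The authors deposited an estimated count (expected count) per gene and animal, of which 80.2% were whole numbers (tolerance 0.001). They also deposited a normalized signal, in which the rounded count was divided by 1 factor per library (relative deviation up to 5e-06 over counts above 50). No 2 libraries were copies, since the lowest chi-square per gene between libraries was 46.2.

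Counts were rounded, and zileuton was compared with vehicle over all 90 animals with edgeR 4.0.16 in R 4.3.3 (TMM, robust quasi-likelihood F test, filterByExpr, 13248 genes kept). The common biological coefficient of variation over all genes tested was 32.1%. The lowest count in a library was 14 for Cyp4a31 and 57 for Acot2, and the part of depth in the spread was not tested. All tests were two-sided, with Benjamini-Hochberg adjustment over all genes tested and a threshold of 0.05. SE is that of the log2 fold change. CPM uses TMM library sizes, and log2 CPM a prior count of 2. The labels do not number litters or cages, and each animal was taken as 1 replicate, numbered within its group in accession order. Spread was tested with limma 3.58.1 over the 11857 genes whose mean log2 CPM reached 0. The edgeR and limma scripts were tested on simulated data. Positions and exon lengths came from GENCODE M21, which matched 97.9% of symbols.

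The genes, the lists and the tests were chosen with earlier results of these data known. The named genes were the 10, in each list the 2 with the lowest adjusted p in each direction among those past the threshold, and the 5 others most like Cyp4a14; 2 genes that this rule chose are not reported here. Ppara and the list genes that passed with a covariate were named in addition, after their values were seen. Alternatives were RLE and upper-quartile scaling, no filter, DESeq2 1.42.0, quality-weighted limma-voom, the deposited normalized signal as log2 of value plus 1 or 0.5, several covariates, and leaving out each animal, each run or the 9 libraries of lowest total.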

Additional observations from a re-analysis of the deposited data

Results flagged for a closer look

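Black and white animals of each exposure were examined, in each of the 10 genes, for an animal set apart from its group. This made 40 combinations of gene, exposure and coat colour, each with 4 to 10 animals. In 12 of them there was such an animal, always the highest, and the same animals recurred. For independent, normally distributed groups chance gives about 1 in 20. CPM values are skewed upward and the genes share animals, so that rate cannot be set against the 12. Among 6 black zileuton animals, replicate 38 stood apart in Cyp4a14 (5307 CPM), Acot1 (366 CPM) and Acot2 (43.6 CPM), and replicate 6 in Cyp4a31 (366 CPM). Among 9 white zileuton animals, replicate 47 stood apart in Acot1 (391 CPM), Acot2 (51.8 CPM), Acot4 (175 CPM) and Ehhadh (3670 CPM). Among 6 black vehicle animals, replicate 37 stood apart in Acot1 (252 CPM), Acot2 (25.2 CPM) and Acot4 (107 CPM), and replicate 24 in Cyp4a31 (118 CPM). The Acot1 and Acot2 values of an animal rest in part on the same shared reads.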

How the results depend on the processing

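All 10 genes kept a positive log2 fold change and an adjusted p under 0.05 with RLE or upper-quartile scaling, no filter, DESeq2, limma-voom, the deposited normalized signal with either pseudocount, and coat, run or plate covariates. The same held without the 9 libraries of lowest total, in each of 90 fits without 1 animal and in each of 8 fits without 1 run. The widest range without 1 animal was 1.76 to 2.05 (Cyp4a31), and without 1 run 0.79 to 1.35 (Acot3). Sizes depended on the method. The highest log2 fold change among the 10 was 1.91 with edgeR (Cyp4a31), 2.36 with limma-voom and 2.46 with the deposited signal. These highest values need not belong to the same gene. The median of the 10 was 1.51 with edgeR, 1.40 with limma-voom and 1.51 with the deposited signal. With the clock score as covariate, 384 of all genes passed against 3878 with exposure alone, 5 list genes passed upward and 2 downward against 50 and 11, and Cyp4a32 (1.12), Acot3 (0.29) and Acot4 (0.10) no longer passed. With position within the run, 217 of all genes, 4 and 0 list genes and 1 of the 10 passed. Estimates were then 1.04 for Cyp4a10, 1.56 for Cyp4a14, 1.39 for Cyp4a31, 0.98 for Cyp4a32, 1.52 for Acot1, 0.92 for Acot2, 0.75 for Acot3, 0.26 for Acot4 and 0.99 for Ehhadh. The cause was not tested. Elsewhere 3232 to 4162 of all genes passed. Each result on spread stayed on its side of the threshold with a prior count of 0.5, each on coat with RLE scaling, and each on correlation with the deposited signal. No paired analysis was possible because no label pairs a zileuton animal with a vehicle animal.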
